A study of Caenorhabditis elegans with 4 samples.

Results

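The CUB-like dod genes dod-17, dod-21, dod-22 and dod-24 and their neighbour F55G11.2 are 5 genes of Caenorhabditis elegans chromosome IV that encode intestinal proteins of the pathogen response. They were picked by name as a group, with the low MV against high MV difference on these arrays already known, so that difference is given below as a description with no test. Of the 5 genes, 4 had a probe, 1 each, among 20462 genes with a probe, and all 4 were among the 12881 genes tested. No probe carried the name of dod-21 (C32H11.10), and its transcript was not analysed here.

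RNA of whole wild-type N2 worms, kept at 20 °C, was hybridized to 4 single-colour Agilent arrays. All were 7 to 8 days into adulthood and had been sorted by maximum velocity (MV), the peak crawling speed of a single animal filmed off food. Worms with an MV under 0.22 mm/sec made up the low MV group and the others the high MV group, with 2 arrays per group. The question was which transcripts differ between worms of the same age and different physical ability. All groups carried the same genotype and received no agent. The labels do not say whether the 2 samples of a group came from separate cultures, so p-values measure only the spread between these samples, and relabelling 2 against 2 samples cannot give a two-sided p below 0.333. Both low MV arrays lay on 1 slide with 1 scan and both high MV arrays on another, so slide, scan and group cannot be told apart.

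CUB-like proteins of this kind are made by the intestine, and many of them carry a secretion signal. Their transcripts respond to bacterial pathogens, largely through the p38 MAP kinase pathway and intestinal GATA factors. The name dod, for downstream of DAF-16, was given to genes whose transcripts change when insulin receptor signalling changes, because DAF-16 is the FOXO factor at the end of that pathway.

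Values below are log2 of the background-subtracted spot intensity after quantile normalization, and differences are low MV minus high MV. A probe counted as present on an array above a signal of 6.65 to 6.67, the point where 2 fitted distributions meet, and a gene was tested if 1 of its probes was present on both arrays of a group. A gene was called where limma gave an adjusted p below 0.05 and a difference beyond 0.58, which is 1.5-fold. Of the 12881 genes, 17% were called lower and 21.8% higher in low MV worms, and the median difference of all genes was 0.01. On arrays scaled to spike-in probes that median was -0.35, with 2753 genes lower and 1007 higher in place of 2192 and 2808.

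All 4 measured genes had lower signal in low MV worms, by 2.60-fold for dod-17 up to 26.4-fold for F55G11.2. The signal of dod-24 (C32H11.12) was 13.21 and 12.31 on the high MV arrays and 10.05 and 9.56 on the low MV arrays. Its groups lay far apart, and the probe was present on all 4 arrays. The difference was -2.95 (SE 0.33), or 7.74-fold, with group means of 12.76 ± 0.64 and 9.81 ± 0.35 (SD, n = 2). Before normalization the same spot had intensities of 10081 and 6233 in high MV and 1119 and 709 in low MV worms, over a local background of 20 to 22. This was the only one of the 4 probes that stayed above the present limit on both low MV arrays.

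The signal of dod-22 (F55G11.5) was 9.61 and 10.35 in high MV worms and 6.98 and 6.53 in low MV worms. The groups did not overlap, and 1 low MV array fell under the present limit. The difference was -3.23 (SE 0.28), or 9.36-fold, from 9.98 ± 0.52 to 6.75 ± 0.32 (SD, n = 2). Its difference and that of dod-24 lay within 1 SE of each other.

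F55G11.2 had the widest gap and the dimmest low MV spots of the 4 genes. Its signal was 8.96 and 9.66 in high MV worms and 5.41 and 3.76 in low MV worms. Both low MV arrays lay under the present limit and differed from each other by more than the high MV arrays did. The means were 9.31 ± 0.49 and 4.59 ± 1.17 (SD, n = 2), a difference of -4.72 (SE 0.56). The spot intensities were 447 and 881 against 50.4 and 13.7, the lowest of them smaller than the local background of 21 that had been subtracted from it. The spot was still scored well above background by the scanner software on all 4 arrays, as were those of dod-17, dod-22 and dod-24.

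The smallest difference was that of dod-17 (K10D11.1). Its signal was 8.17 and 8.02 in high MV worms and 7.25 and 6.19 in low MV worms. Both low MV values were below both high MV values, and the low MV arrays were 1.06 apart. The means were 8.10 ± 0.11 and 6.72 ± 0.75 (SD, n = 2), a difference of -1.38 (SE 0.34). Without low MV replicate 2 it was -0.85, and without low MV replicate 1 it was -1.91.

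**Figure D1:**
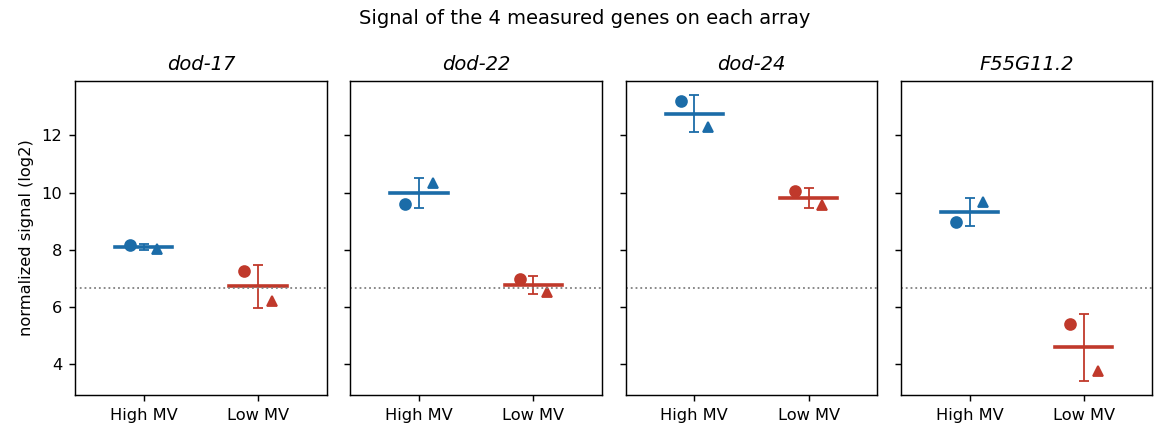
Normalized signal (log2) of dod-17, dod-22, dod-24 and F55G11.2 on each array, with circles for replicate 1 and triangles for replicate 2, a bar at the group mean and whiskers of 1 SD (n = 2). The dotted line is the present limit of about 6.65. In each panel both low MV points lie below both high MV points, and heights are not comparable between panels because each gene has a probe of its own.

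All 4 genes passed the call as lower, against 17% of all genes tested, and in all 4 both low MV arrays lay below both high MV arrays, as in 41.2% of all genes. These counts carry no weight of their own. The genes were picked on this contrast, and F55G11.2, dod-22 and dod-17 entered the test only because they were present on both high MV arrays, with 0, 1 and 1 present low MV arrays. The median difference of the 4 genes was -3.09.

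The size of the differences depended on the treatment of background, above all for the 3 genes that were dim in low MV worms. With normexp background correction and an offset of 50, which shrinks differences of dim spots by construction, F55G11.2 was at -1.61, dod-22 at -1.81 and dod-17 at -0.37, where dod-17 was no longer called. The brighter dod-24 was then at -2.65, the largest of the 4. In the log2 table that the authors deposited, made without background subtraction, F55G11.2 was at -3.73 and dod-17 at -1.02. The order of the 4 genes by size of difference is thus not fixed by these data. All 4 were below 0 under each of the 12 alternatives run for each gene, but many of these could not change the sign. With a single probe per gene, the other filters, the other probe rule and the replicate block returned the reported difference. Leaving out a single array could not reverse groups that did not overlap. Only the scalings, normexp and the deposited table could have moved the sign.

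**Figure D2:**
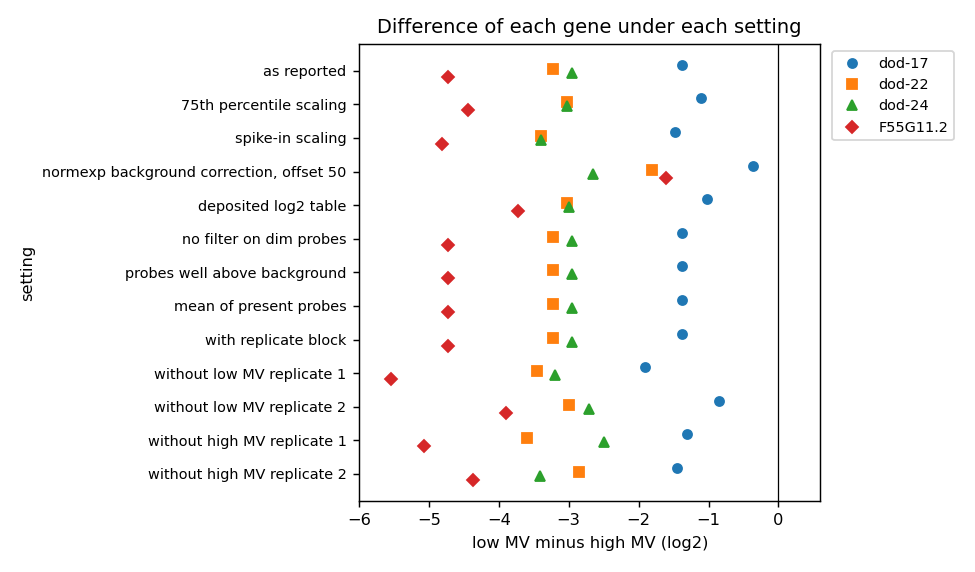
Difference between low MV and high MV worms (log2, horizontal axis) of each of the 4 genes under each way of processing (rows). Every symbol lies left of 0, and F55G11.2, dod-22 and dod-17 sit nearest to 0 under normexp background correction, at -1.61, -1.81 and -0.37.

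The median SD over all genes was 0.105 between the high MV arrays and 0.0659 between the low MV arrays. The SDs of the 4 genes were above these medians in both groups, other than dod-17 in high MV worms, whose 0.11 was about equal to it. From replicate 1 to replicate 2 of the high MV group, dod-22 and F55G11.2 differed by 0.74 and 0.70 while dod-24 differed by -0.91 and dod-17 by -0.15. In low MV worms all 4 genes were lower on replicate 2, by -0.45 for dod-22, -0.49 for dod-24, -1.06 for dod-17 and -1.65 for F55G11.2. This direction was not particular to them. Of the intestine markers listed below, ges-1, pept-1 and nhx-2 were higher on that array and the others lower, down to -1.47 for ifb-2. The 4 genes did not share 1 pattern among the high MV arrays. Measured from the mean profile of the 4 genes, dod-22 and dod-24 deviated by a root mean square of 0.292 and 0.388 over the 4 arrays, against 0.852 for dod-17 and 0.892 for F55G11.2. Each gene was centred over all 4 arrays, so these values include the size of the difference between groups as well as the spread between replicates.

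The genes next to them on the chromosome were not used to pick them and were tested in the same fit. The clones below were listed with earlier results of these arrays known, so their counts are given as a description. Clones K08D8, C32H11, F55G11 and K10D11 are consecutive stretches of chromosome IV that gave the genes their sequence names, and together they hold 43 genes, the 5 described here included. Of the other 38, 18 were tested, 12 had only dim probes and 8 had no probe. Among the 18, 8 were called lower (44.4%) and 1 higher, with a median of -1.47, whereas 19.6% of the 2107 genes tested on the whole chromosome were called lower and their median was -0.04. Of the 8, 2 were not present on both low MV arrays. Counting only genes present on all 4 arrays, 6 of 13 were lower, against 15.6% of 11739 such genes.

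The outermost genes of the run called lower were K08D8.4 and K10D11.2, and the stretch between them holds 28 genes, of which 15 were tested, 9 were dim and 4 had no probe. Its ends were set after the values were seen, at called genes, so the lack of lower calls in the rest of the run follows from that choice. It also depends on the probe used for K08D8.1, which lies outside the stretch. The brightest probe of K08D8.1 gave -0.09, and its 8 probes ranged from -1.37 to -0.09. Within the stretch 8 of the 11 tested genes other than the dod genes and F55G11.2 were lower and 3 were not called. Outside the run, in the 20 genes before it 2 of 13 tested genes were lower and 2 higher (15.4% each). In the 20 genes after it 0 of 8 were lower by limma and 1 was higher (12.5%). Of all genes tested, 17% were lower and 21.8% higher. Counts this small do not set a boundary of the run. At an unadjusted limma p below 0.05, and with no limit on the size, 1 of those 8 genes was lower, and the methods' t-test with the 1.5-fold limit called 0 of them lower.

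**Figure D3:**
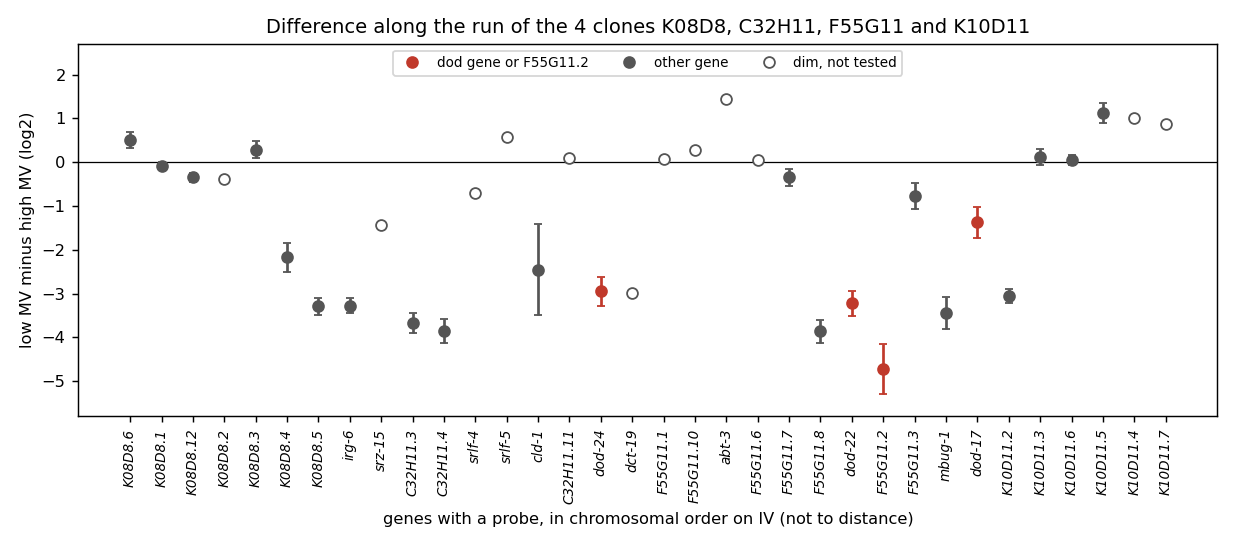
Difference between low MV and high MV worms (log2, whiskers 1 SE) for the genes with a probe in clones K08D8, C32H11, F55G11 and K10D11, in chromosomal order and not to distance. Red points are the dod genes and F55G11.2, and open circles are dim genes that were not tested. The genes called lower lie between -1.38 and -4.72, with K08D8.4 first and K10D11.2 last in the order, and K10D11.5, at 1.12, was called higher.

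The genes directly beside dod-17 are mbug-1 (F55G11.4) and K10D11.2, and F55G11.8 lies beside dod-22. All 3 were called lower. The signal of mbug-1 was 15.40 and 14.84 in high MV worms and 12.17 and 11.17 in low MV worms. It was bright on every array, and the fall of 10.9-fold (log2 difference -3.45, SE 0.37, adjusted p = 0.00172) therefore did not rest on dim spots. F55G11.8 was at 8.62 and 9.36 against 5.04 and 5.21, below the present limit on both low MV arrays, with a difference of -3.87 (SE 0.25, adjusted p = 0.000762). The pseudogene F55G11.3, which lies between F55G11.2 and mbug-1, was at -0.78 (adjusted p = 0.0705), and F55G11.7 at -0.35 (adjusted p = 0.181). Neither passed on the probe used, so genes without a call lay between genes with large differences. For F55G11.3 this rests on its brightest probe. Its other probes, too dim to be kept, were at -3.33, -2.69 and -2.52.

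At the other end of the stretch, C32H11.3, C32H11.4, K08D8.5 and the infection response gene irg-6 (C32H11.1) fell by similar amounts. C32H11.4 had signals of 11.64 and 11.85 against 7.47 and 8.30 and a difference of -3.86 (SE 0.28, adjusted p = 0.000876). C32H11.3 went from a mean of 11.27 ± 0.10 to 7.60 ± 0.48 (SD, n = 2), a difference of -3.67 (SE 0.23, adjusted p = 0.000743). All 4 arrays were above the present limit for both genes, and their groups were separated by more than 3 log2 units. For K08D8.5, which encodes a CUB-like protein, all 6 probes were lower, by -3.29 to -3.86, and the brightest gave -3.29 (SE 0.20, adjusted p = 0.000717). The difference of irg-6 was -3.28 (SE 0.17, adjusted p = 0.000644). Beyond them K08D8.4 was at -2.17 (SE 0.33, adjusted p = 0.00407), and K10D11.2 at -3.06 (SE 0.16, adjusted p = 0.000665) with 1 low MV array present. The gene cld-1 (C32H11.9) had low MV values of 3.34 and 6.56 and was not called (difference -2.46, SE 1.04, adjusted p = 0.0921).

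The only one of the 18 genes called higher was K10D11.5. Its signal was 8.33 on each high MV array and 9.79 and 9.12 in low MV worms, a difference of 1.12 (SE 0.22, adjusted p = 0.00973). Several of these genes belong to one family, and whether a probe also binds the transcript of a relative was not tested, since no probe or transcript sequence was used here.

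The 12 genes called lower also differed in how their replicates stood to each other. In low MV worms K08D8.5, irg-6, C32H11.3, C32H11.4 and F55G11.8 were higher on replicate 2, by 0.55, 0.47, 0.68, 0.82 and 0.17. The other 7 were lower on replicate 2, by -0.97 for K08D8.4 and -0.44 to -1.65 for dod-24, dod-22, F55G11.2, mbug-1, dod-17 and K10D11.2. The tested genes not called between K08D8.4 and K10D11.2 were F55G11.7, F55G11.3 and cld-1. They were higher on replicate 2 by 0.57, 0.43 and 3.22. In high MV worms the 3 adjacent genes F55G11.8, dod-22 and F55G11.2 were higher on replicate 2 by 0.74, 0.74 and 0.70. This pattern was seen in the data and is given without a test, over 2 arrays per group.

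**Figure D4:**
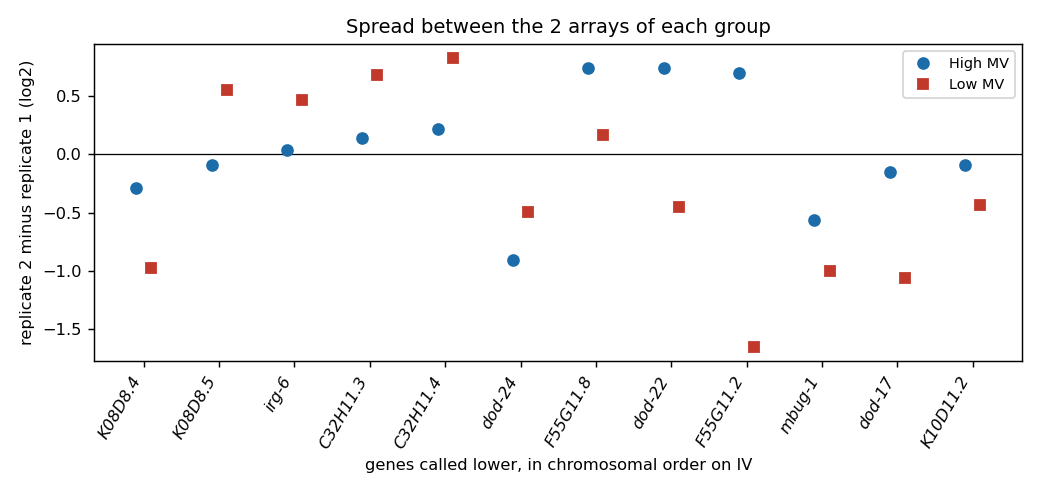
Replicate 2 minus replicate 1 (log2) within the high MV group (circles) and the low MV group (squares) for the 12 genes of the run called lower, in chromosomal order. Low MV squares lie above 0 for K08D8.5, irg-6, C32H11.3, C32H11.4 and F55G11.8 and below 0 for K08D8.4, dod-24, dod-22, F55G11.2, mbug-1, dod-17 and K10D11.2.

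With clone F35E12 of chromosome V, which carries the CUB-like gene irg-5, the 5 clones hold 48 genes other than the 5 described here. This set, too, was listed with earlier results of these arrays known. Of the 27 tested, 13 were lower (48.1%, against 17% of all genes) and 2 higher, and the median was -1.53. Of these, 6 of the 27 and 3 of the 13 were not present on both low MV arrays, and 10 of the 21 present on all 4 arrays were lower. In F35E12 the genes called lower were irg-5 at -2.14, scl-16, of the SCP-like extracellular proteins, at -2.14, dct-17 at -1.76, the F-box gene fbxa-181 at -1.54 and F35E12.6 at -1.53. F35E12.4 rose, from 8.33 and 8.30 to 9.46 and 9.62, a difference of 1.23 (SE 0.10, adjusted p = 0.00103). Under normexp 12 of these genes were still called lower and 2 higher, and their median was -0.47.

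Among 6 other genes of the dod class, 5 were tested and 2 were called lower, against 17% of all genes tested. The signal of dod-3 was 12.34 and 12.30 in high MV worms and 9.18 and 9.20 in low MV worms, a difference of -3.13 (SE 0.09, adjusted p = 0.000445). For dod-6 it was 15.01 and 14.41 against 12.37 and 11.98, a difference of -2.53 (SE 0.24, adjusted p = 0.00131). The other tested genes of the class were not called, with dod-18 at -0.31, dod-19 at 0.01 and dod-23 at 0.09, and dod-20 was dim. The name dod therefore covered both genes with large falls and genes with no call, and dod-18 was called lower when arrays were scaled to the 75th percentile or to spike-in probes.

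Of 11 other effectors of the pathogen response, 10 had a probe. All 10 were called lower, against 17% of all genes tested, with a median of -2.71 against 0.01 for all genes. Of the 10, 9 were present on all 4 arrays. The lysozyme gene lys-2 fell most, from 13.67 and 14.04 to 8.66 and 9.65, a difference of -4.70 (SE 0.34, adjusted p = 0.000879). The differences of sysm-1 (T24B8.5), a target of the p38 pathway, and of the CUB-like genes irg-4 (F08G5.6) and C17H12.8 were -4.23, -3.98 and -3.40. K08D8.5 and irg-5, already described with their clones, were at -3.29 and -2.14. Smaller falls were measured for the lysozyme gene lys-8 at -1.79, mul-1 at -1.37, the cation-transporting ATPase gene catp-3 at -1.33 and the C-type lectin gene clec-67 at -1.05. No probe was named for clec-85. The call of clec-67, which was dim in low MV worms, was lost under normexp. These effectors were listed with earlier results of these arrays known.

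Replicate 2 of the high MV group was the higher one for several of these effectors, as for dod-22 and F55G11.2. Its excess over replicate 1 was 1.62 for irg-5, 1.32 for irg-4 and 0.82 for sysm-1. The sperm genes msp-3, msp-38 and gsp-3 were also higher on that array, by 2.27, 2.58 and 1.29. Without high MV replicate 2, the difference of F55G11.2 was -4.37 and that of dod-22 was -2.86.

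The p38 pathway did not share the direction of the CUB-like genes. By limma 0 of its 6 listed genes were lower, against 17% of all genes tested. At an unadjusted p below 0.05 and by the methods' t-test the count was likewise 0. By limma 4 of the 6 were higher, against 21.8% of all genes, and the median of the 6 was 0.84. The adaptor gene tir-1, at the head of the pathway, had signals of 12.35 and 12.82 in high MV worms and 14.34 and 14.61 in low MV worms, a difference of 1.89 (SE 0.19, adjusted p = 0.00149). The kinase genes nsy-1 and pmk-1 rose by 0.95 (adjusted p = 0.00267) and 0.73 (adjusted p = 0.00653), and vhp-1, a phosphatase gene that limits MAP kinases, rose by 1.76 (adjusted p = 0.000901) on its brightest probe. The 17 probes of vhp-1 ranged from 0.66 to 1.76, and their mean gave 1.145. The kinase gene sek-1 was at 0.38 (adjusted p = 0.0208), short of 1.5-fold, and the transcription factor gene atf-7 was at -0.08 (adjusted p = 0.468). On arrays scaled to spike-in probes only tir-1 and vhp-1 of the 6 were called, and the median was 0.34. Transcript levels do not measure the activity of a kinase pathway.

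Of 5 genes of the insulin pathway, 1 was called, as higher, against 21.8% of all genes tested. The receptor gene daf-2 was at 0.19, the kinase genes age-1 and akt-1 at 0.04 and -0.39, and daf-16 itself at 0.10, none of them called. The transcription factor gene pqm-1 rose by 0.74 (SE 0.14, adjusted p = 0.00892), a call lost under spike-in scaling. The median of the 5 genes was 0.10. It turned to -0.04 and -0.41 when arrays were scaled to the 75th percentile and to spike-in probes. In both settings akt-1 was called lower, as it was on the mean of its 2 present probes, at -0.66. Those probes were at -0.94 and -0.39. Of the intestinal GATA factors, elt-2 was at 0.34 (adjusted p = 0.101) and elt-7 at 0.31 (adjusted p = 0.0891), neither called. The gene elt-4 was dim. In the deposited log2 table elt-4 was bright enough to be tested and was called lower, at -0.75. Under normexp it was tested, at -0.18, and not called.

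**Figure D5:**
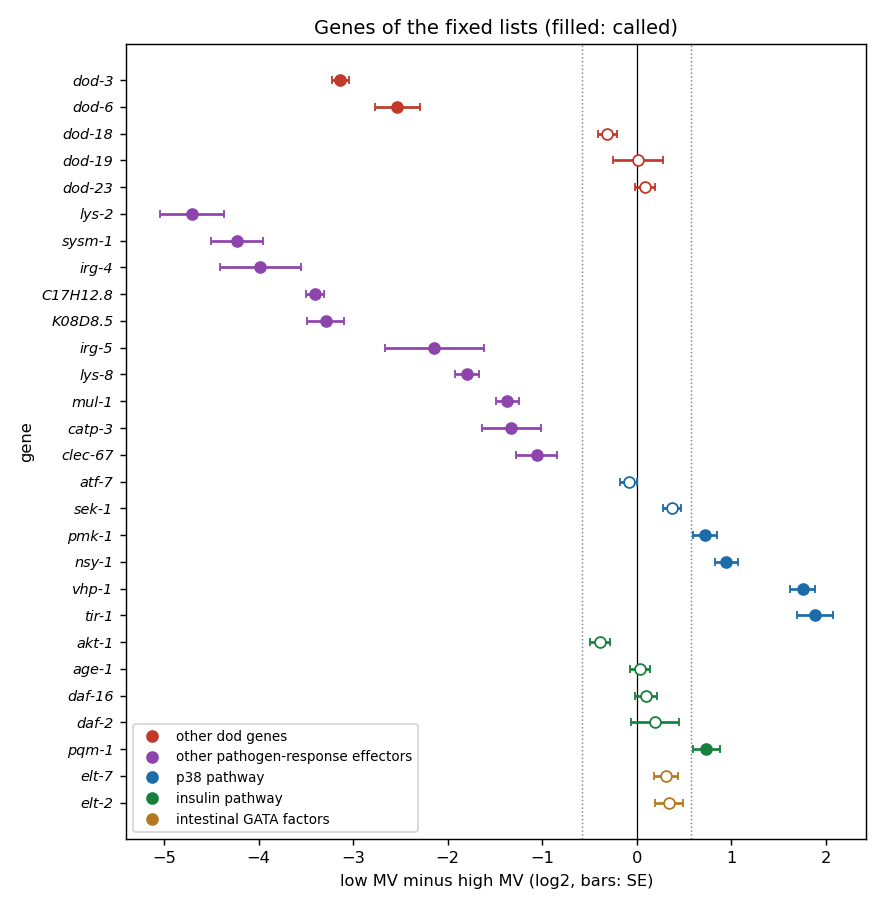
Difference between low MV and high MV worms (log2, whiskers 1 SE) of each tested gene in the lists of other dod genes, other effectors, p38 pathway, insulin pathway and intestinal GATA factors. Filled points were called, and dotted lines mark 1.5-fold. All 10 effectors lie between -4.70 and -1.05, whereas the 4 called p38 pathway genes lie between 0.73 and 1.89.

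RNA came from whole worms, so fewer cells of a type and less RNA per cell cannot be told apart. All 12 listed intestine markers were tested and none was dim. They did not fall as a group, since 3 were lower, 1 was higher and 8 were not called. Of all genes tested, 17% were lower and 21.8% higher. The median of the 12 markers was 0.12, or -0.22 under spike-in scaling. The esterase gene ges-1 fell by 1.56 on the log2 scale, vha-6 by 0.65 and cpr-1 by 0.58, and ifo-1 rose by 1.23. The calls of cpr-1 and ifo-1 were lost under normexp, and that of cpr-1 also in the deposited log2 table. Those of ges-1 and vha-6 were kept in both. Summed over the list, linear signal was 177000 to 214000 on the high MV arrays and 145000 to 187000 on the low MV arrays. These ranges overlap. The summed signal of dod-17, dod-22, dod-24 and F55G11.2 was 7440 to 11100 against 934 to 1380. Such sums follow the brightest genes, here cpr-1 and asp-1 (high MV means of 16.98 and 15.61) and dod-24 (12.76). They do not measure each list as a whole. Among markers of other cells, 2 of 4 tested body wall muscle genes were lower and both tested pharynx genes were higher. By limma 0 of 3 tested sperm genes were called, with a median of -2.26. At an unadjusted limma p below 0.05, 2 of the 3 were lower, and by the methods' t-test 0 were. All 3 were called lower under spike-in scaling, where calls did not follow the wide spread between their replicates. Of 5 epidermis genes col-19, a cuticle collagen gene, was lower at -3.57 and 2 were higher, among them dpy-7 at 1.75. Of 5 neuron genes 2 were higher, and of 5 germline genes 1 was lower. The part of cell composition in the lower signal of the CUB-like genes was not tested.

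Outside the 5 clones, the 5 genes whose profile over the 4 arrays was most like the mean profile of the 4 measured genes were chil-22, bath-26, col-141, col-138 and asp-8, with root mean square differences of 0.205 to 0.248 after each gene was centred. The cuticle collagen gene col-138 was at 12.06 and 11.87 in high MV worms and 8.85 and 8.41 in low MV worms. The collagen gene col-141, the chitinase-like gene chil-22, the MATH and BTB domain gene bath-26 and the aspartyl protease gene asp-8 were at 6.77 to 7.63 in high MV worms and 3.21 to 4.83 in low MV worms, under the present limit. Likeness over 4 arrays in 2 groups describes these arrays alone.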

How the data were processed

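RNA of 2 low MV and 2 high MV samples was measured on single-colour arrays. The authors scanned them with Feature Extraction 11.5.1.1 (submitters' processing notes) and deposited, per spot, the background-subtracted intensity, the median brightness of spot and background, and flags. The deposited log2 table equals the quantile-normalized log2 median spot brightness within 5e-09. Precision is limited by the number of arrays.

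Here log2 of the intensity of 43803 non-control spots was quantile normalized. The 77 spots with an outlier flag were dropped, spots of 1 probe were averaged, and the brightest present probe stood for a gene. Between 84.6% and 87.7% of spots per array were well above background and 0 were saturated. Of 28477 probe names, 22716 matched the RefSeq table of WBcel235, used for names and gene order only, 637 were kept as sequence names and 5124 gave no gene. The array design uses an older build, so no coordinates are printed. The comparison used lmFit and eBayes of limma 3.58.1 (R 4.3.3), two-sided, adjusted after Benjamini-Hochberg over all 12881 genes. This step was tested on simulated data. Tables and figures were made with Python 3.11.15, pandas 2.3.3, numpy 2.4.6 and matplotlib 3.10.9. The methods' integrative test was not rebuilt here, because 2 arrays per group need a spread shared across genes. What is named the methods' t-test is its Student t-test alone, with p from the t distribution in place of permutations.

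The genes and lists were chosen with earlier results of these data known. Named genes are the 5 genes, all genes of the p38, insulin, GATA and effector lists, the 5 largest falls and up to 3 largest rises among called genes of the 5 clones, and the 5 most alike genes. Other genes of the run and the clones, the markers and the dod class were named after their values were seen, to complete the counts. The 5 clones stand in for relatives by protein sequence. Protein identity, promoter motifs and the stricter sequence list were not run here, because no sequence table was used. Alternatives were scaling to the 75th percentile or to 8 of 10 spike-in probes (those with over 50% of spots well above background), the deposited log2 table, normexp (offset of 50), other filters and probe rules, a replicate block, each array left out, the methods' t-test, a trended variance prior and a log2 threshold of 1.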

Additional observations from a re-analysis of the deposited data

How the results depend on the processing

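The median difference of the 4 measured genes, -3.09, was -1.71 under normexp, whose offset shrinks dim spots by construction, and -3.326 to -2.854 when single arrays were left out. Single genes ranged from -5.548 to -3.898 for F55G11.2, -1.907 to -0.847 for dod-17, -3.598 to -2.856 for dod-22 and -3.406 to -2.499 for dod-24 when 1 array was left out, the lone array being taken to vary like the other group. Genes called higher numbered 2808 as reported, 1007 under spike-in scaling, 1517 under normexp, 4251 with probes well above background, 803 by the methods' t-test with Benjamini-Hochberg adjustment, 1284 at a log2 difference of 1, and 2742 to 2887 with 1 array left out. Genes called lower numbered 2192, against 1322, 765 and 924 under normexp, that t-test and the log2 difference of 1, and 2056 to 2356 with 1 array left out. Of the other genes of the 5 clones, 13 were lower and 2 higher. The adjusted t-test gave 6 and 1, the unadjusted one 11 and 1, and leaving out 1 array 13 to 16 and 2. Apart from normexp, and from the construction of the stricter tests, the cause of these moves was not tested. None of the differences and medians in this paragraph changed sign under the alternatives run. For the 4 measured genes only the scalings, normexp and the deposited table could have changed it. The labels do not say whether replicate numbers pair the samples. Differences between numbers correlated at -0.0407 across genes, which cannot decide it with 1 difference per group. A block for the numbers lowered the SE of dod-24 and dod-17 and raised that of dod-22 and F55G11.2. With the replicate block 2836 genes were higher and 2197 lower, with 13 and 2 in the clones. The slide could not be fitted as a block, and no list of relatives by protein sequence was run. The low MV signals of F55G11.2, dod-22 and dod-17 near or under the present limit bound how exactly their folds are known.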
